A study of Mus musculus with 4 samples.

Results

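Among aortic smooth muscle cells of the second heart field lineage at baseline, 900 cells carried transcripts of Tnnt2, the cardiac troponin T gene, and none of Igfbp2, which encodes an insulin-like growth factor binding protein. They were chosen in the SHF_Baseline library after barcodes under 500 detected genes, or with over 10% of their UMIs (unique molecular identifiers, each a captured transcript) from mitochondrial genes, had been removed. A cell entered the smooth muscle gate with at least 5 UMIs of Myh11, the smooth muscle myosin heavy chain, and 0 of Pdgfra (a fibroblast gene), Ptprc (a leukocyte gene) and Pecam1 (an endothelial gene). Of the 2090 cells in that gate, 900 had at least 2 Tnnt2 UMIs and 0 Igfbp2 UMIs, a share of 43.1% (exact binomial 95% interval 40.9 to 45.2%). They were 10.5% of the 8579 cells kept from this library, and the 3 libraries used held 28540 kept cells. The other 1190 cells of the gate, and 3957 cells of the same library with at least 1 Pdgfra UMI and at most 2 Myh11 UMIs (Pdgfra cells), were the comparisons.

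The study compared how cells of second heart field (SHF) and of other origins in the mouse ascending aorta respond to angiotensin II (AngII), a vasoconstrictor peptide. Aortas were taken from male Mef2c-mTmG mice, and living single cells were sorted by lineage and captured with a 10x Chromium 3′ v3 kit. The libraries used were SHF_Baseline, without AngII, and SHF_AngII and CNC_AngII, each after 3 days of AngII infusion; the labels do not spell out CNC. CNC_Baseline was not analysed here. All groups carried the same strain label. The labels give neither the age nor the number of the mice, and no row of the files was named for a reporter or Cre, so the lineage sort could not be checked from expression.

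Each group was 1 library, so no comparison here has a replicate and none was tested. Levels are summed UMIs as counts per 1e6 UMIs (CPM), and ratios are log2 ratios after adding 1 CPM to each side. All intervals are 95% intervals for counting error only: exact Poisson for levels, conditional binomial for ratios (taken without the added 1 CPM, so the ratio of a low gene can lie outside its own interval) and exact binomial for shares. They do not cover differences between mice. The cells were chosen on transcripts of the same library, so the SHF_Baseline values describe that choice and support nothing beyond it.

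Troponin T ties the troponin complex to tropomyosin on the thin filaments of striated muscle, where calcium binding to troponin C sets contraction. Smooth muscle contracts through another switch, the phosphorylation of myosin light chains by the kinase encoded by Mylk. Second heart field progenitors give rise to outflow tract myocardium and to part of the smooth muscle of the ascending aorta.

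Tnnt2 lies at chr1:135836354-135852260 on the plus strand, Igfbp2 at chr1:72824503-72852474 on the plus strand and Des, the desmin gene, at chr1:75360329-75368579 on the plus strand (GRCm38, GENCODE annotation). The 250 bases before the annotated start of Tnnt2, which chose the cells, and of Des and Fhl2, which were higher in them, are given as in RefSeq for GRCm38.p6, 5′ to 3′ on the gene's strand. Of 5 genes looked for (Tnnt2, Des, Fhl2, Actc1 and Tcap), 4 had an entry. Capitals mark M-CAT elements (CATTCC, read by TEAD factors), GATA motifs (GATAA), CArG boxes (read by serum response factor) and MEF2 sites, on either strand.
Tnnt2, chr1:135836084-135836333, plus strand: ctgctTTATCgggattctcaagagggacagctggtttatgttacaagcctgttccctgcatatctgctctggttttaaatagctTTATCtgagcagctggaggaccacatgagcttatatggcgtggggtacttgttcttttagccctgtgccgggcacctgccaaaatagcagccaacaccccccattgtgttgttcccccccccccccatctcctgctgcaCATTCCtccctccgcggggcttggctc
Des, chr1:75360042-75360291, plus strand: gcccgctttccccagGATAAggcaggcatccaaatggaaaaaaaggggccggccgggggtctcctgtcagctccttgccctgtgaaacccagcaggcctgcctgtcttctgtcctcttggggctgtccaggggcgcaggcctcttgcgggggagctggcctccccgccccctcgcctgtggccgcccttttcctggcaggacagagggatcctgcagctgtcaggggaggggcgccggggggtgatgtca
Fhl2, chr1:43196762-43197011, minus strand: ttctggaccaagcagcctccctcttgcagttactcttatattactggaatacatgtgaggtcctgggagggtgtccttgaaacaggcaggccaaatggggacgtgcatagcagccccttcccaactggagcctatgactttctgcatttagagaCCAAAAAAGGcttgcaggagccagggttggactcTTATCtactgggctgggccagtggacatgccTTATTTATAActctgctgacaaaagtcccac
The Tnnt2 window held an M-CAT element 27 to 22 bases before the start and GATA motifs on the opposite strand at 245 to 241 and 166 to 162 bases. The Des window held a GATA motif 235 to 231 bases before the start. The Fhl2 window held a CArG box at 96 to 87 bases, a GATA motif on the opposite strand at 62 to 58 bases and a MEF2 site at 31 to 22 bases. Tnnt2 and Fhl2 each had 2 annotated starts, of which the first is shown. Of 32851 windows of this length, 12.6% held M-CAT, 22.6% GATA, 1.47% a CArG box and 2.92% a MEF2 site. These are matches of letters and not measured binding.

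The members and the other smooth muscle cells were sequenced to like depth, with medians of 12321.5 and 12553.5 UMIs per cell and 7.29% and 7.36% mitochondrial UMIs. Pdgfra cells were shallower, with a median of 9556 UMIs and 4.10% mitochondrial UMIs. SHF_Baseline shared 29 barcodes with SHF_AngII and 34 with CNC_AngII, and 5 and 1 of these were members. A doublet caller marked 13 members (1.44%) and 22 other smooth muscle cells (1.85%).

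Tnnt2 varied widely among the chosen cells. The members held from 2 to 175 Tnnt2 UMIs, with a median of 9 and quartiles of 4 and 21. Their summed level was 1372 CPM (1351 to 1393), against 288 CPM (280 to 297) in the other smooth muscle cells. Pdgfra cells had 41.6 CPM, and 10.6% of them had a Tnnt2 UMI (8.21% after thinning each cell to 5000 UMIs), the level in cells of another type. It was uneven there: 1 cell held 54 UMIs and the top 1% of cells held 48.1% of them; whether this is free RNA, expression or doublets was not tested. Of the 1591 smooth muscle cells without Igfbp2, 31.2% had 0 Tnnt2 UMIs, 12.2% had 1 and 6.54% had 2, and 3.02% had 65 or more. The minimum of 2 UMIs therefore divides a continuous range of counts. Cells with Igfbp2 spanned the same range: of 499, 30.1% had 0 Tnnt2 UMIs and 1.804% had 65 or more.

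**Figure D1:**
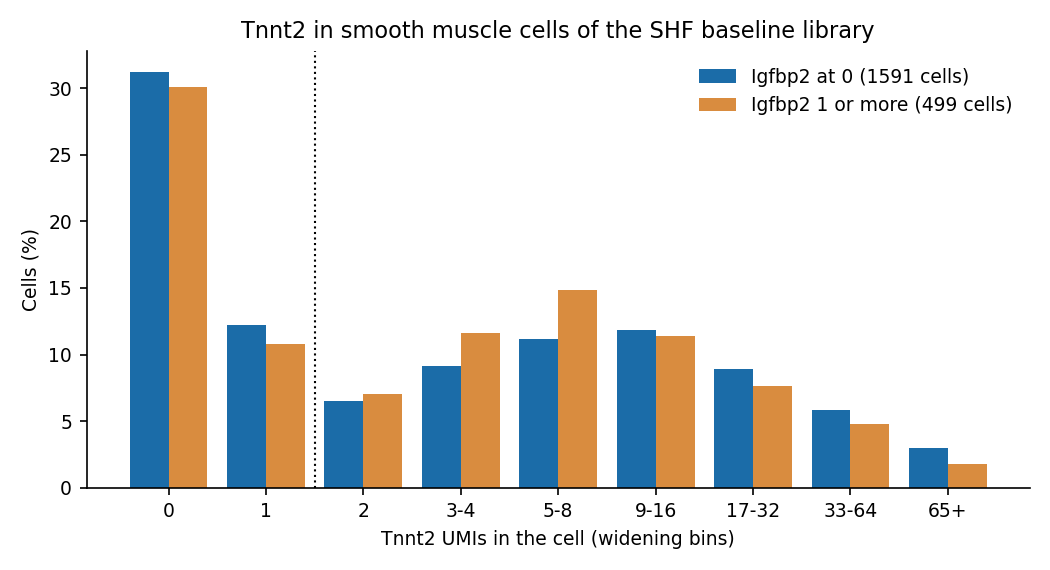
Share of smooth muscle cells (%) by the number of Tnnt2 UMIs per cell in SHF_Baseline, for the 1591 cells with Igfbp2 at 0 and the 499 cells with 1 or more Igfbp2 UMIs. Both sets run from 0 UMIs (31.2% and 30.1%) to 65 or more (3.02% and 1.804%) with no gap at the minimum of 2.

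Cells on either side of each minimum were counted apart. The 104 members with exactly 2 Tnnt2 UMIs had Des at 524 CPM, Psd at 50.7 CPM and Fn1 (fibronectin) at 337 CPM. The 194 cells just outside, with 1 Tnnt2 UMI and no Igfbp2, had Des at 383 CPM, Psd at 69.4 CPM and Fn1 at 377 CPM. The 95 cells left out for a single Igfbp2 UMI had Des at 547 CPM and Fn1 at 473 CPM. At the Myh11 minimum, 8 members had exactly 5 UMIs, and 2 cells with 4 UMIs met the other conditions. The 75 members with 50 or more Tnnt2 UMIs stood far from these, with Des at 1342 CPM, Psd at 318 CPM and Fn1 at 121 CPM. Genes that are high in Pdgfra cells were divided. Apoe stood at 559 CPM in members with 2 Tnnt2 UMIs and 2318 CPM in those with 50 or more, and Dcn (decorin) at 397 and 977 CPM. Cells outside, with Tnnt2 and Igfbp2 both at 0, had Apoe at 837 CPM and Dcn at 600 CPM. Among thinned cells without Igfbp2, Mfap5 was 568 CPM at 0 Tnnt2 UMIs and 251 CPM at 5 or more. Col5a1 was 110.5 and 57.1 CPM. In Pdgfra cells these 2 genes stood at 3013 and 301 CPM.

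The name smooth muscle was checked on markers that the rule did not use, and these were high. Acta2, Tagln, Myl9, Lmod1, Smtn and Myocd summed to 56478 CPM in the members, 57727 CPM in the other smooth muscle cells and 1476 CPM in Pdgfra cells. Cnn1 (calponin) had a UMI in 100% of the members, with a median of 19 UMIs in members and in other smooth muscle cells alike. Des was less even: 57.8% of members had a UMI (52.9% after thinning), against 45.5% (39.6%) of the other smooth muscle cells and 4.25% (2.53%) of Pdgfra cells. Its median was 3 UMIs per member and its highest count 81. Myh11 and Tnnt2, also given as markers of these cells, were set by the rule.

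Markers of other cell types were low or alike in both smooth muscle groups. The 10 fibroblast markers summed to 2719 CPM in members, 2997 CPM in other smooth muscle cells and 33798 CPM in Pdgfra cells, with Pdgfra at 0 by the rule. The 8 endothelial markers summed to 1.45 and 1.796 CPM and the 9 leukocyte markers to 1.70 and 2.57 CPM, with 5 and 6 of them at 0 in members. Among these, Pecam1 and Ptprc were at 0 by the rule. Pericyte markers summed to 285 and 320 CPM, chondrocyte markers to 58.6 and 78.1 CPM and adipocyte markers to 136 and 137 CPM. Skeletal muscle markers summed to 6.31 and 4.81 CPM, Schwann cell markers to 2.73 and 4.17 CPM and mesothelial markers to 0.256 and 0 CPM, while erythrocyte markers summed to 0 and 0.0641 CPM. The 12 cardiomyocyte markers summed to 51.8 CPM in members, 28.5 CPM in other smooth muscle cells and 3.27 CPM in Pdgfra cells; Myh7 and Myl2 were at 0 in members and 8 of the 12 were under 5 CPM.

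Of 38 striated muscle genes listed, 14 besides Tnnt2 itself reached a mean of 10 CPM over members and other smooth muscle cells. Of these 14, 4 were 1.5-fold or more higher in members (Des, Actc1, Tcap and Fhl2) and 0 lower, with a median log2 ratio of 0.11. Over all 7165 genes at that level, 0.614% were 1.5-fold higher and 0.461% 1.5-fold lower, with a median of 0.00. Des stood at 672 CPM in members and 436 CPM in the other smooth muscle cells (log2 ratio 0.62, 0.58 to 0.67). Tcap, which encodes the titin cap protein telethonin, stood at 118 and 75.2 CPM (0.65, 0.54 to 0.77), but was under 1.5-fold in 4 of 14 alternative settings. These were a Tnnt2 minimum of 4 UMIs (0.50) and both forms of thinning (0.47 and 0.52). The lowest was 0.28, against only the cells with Tnnt2 and Igfbp2 both at 0. Fhl2, a LIM domain cofactor of muscle, stood at 30.5 and 19.5 CPM (0.62, 0.42 to 0.87). A UMI of Des was found in 57.8% of members, of Tcap in 47.1% and of Fhl2 in 26.9%, whereas Actc1, the cardiac actin gene, lay in few cells. Actc1 stood at 21.0 and 2.44 CPM (2.68, 2.61 to 3.64), but only 3.33% of members had a UMI and 9 cells held 71.1% of its 246 UMIs. Actc1 thus reached the mean of 10 CPM only through the members. Actn2, a Z-disc actinin, stood at 22.8 and 16.2 CPM, short of 1.5-fold.

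The other troponin subunits and several further sarcomere genes were near 0, while tropomyosin, which smooth muscle shares, was not: Tpm1 stood at 2237 CPM in members and 2149 CPM in the other smooth muscle cells. Tnni3 (cardiac troponin I) had 25 UMIs in all members (2.13 CPM) and Tnnc1 (troponin C) had 30 (2.56 CPM). The slow troponin I gene Tnni1 had 5 UMIs, the myosin genes Myh6 and Myl7 had 7 and 3, and Mybpc3 (myosin binding protein C) had 1. Ttn, the titin gene, had 65 UMIs, of which 78.5% lay in 9 cells, and all 34 UMIs of Csrp3 lay in 9 cells or fewer. Whether these few cells are doublets, or carry RNA of another cell, was not tested.

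The contractile genes of smooth muscle were mostly close in level in members and the other smooth muscle cells. Of 23 measured, 0 were 1.5-fold higher and 0 lower, 11 lay above and 12 below, and the median log2 ratio was -0.00. Over all 7165 genes with a mean of 10 CPM or more, 0.614% were 1.5-fold higher and 0.461% lower. The counts of 0 are near those shares. Acta2 (smooth muscle actin) stood at 28539 and 30503 CPM (-0.10). Lmod1, an actin nucleator, had a log2 ratio of 0.13. The widest of those named was Pdlim3, a Z-line protein gene, at 359 and 266 CPM (0.43, 0.37 to 0.49).

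At a mean of 50 CPM or more, 2522 genes were compared with the other smooth muscle cells; 9 (0.357%) were 1.5-fold or more higher in members and 7 (0.278%) lower. They included Psd, Itih4, Lum, Apoe, Smad6, Mrps6, Tcap and Des among the higher genes. Psd, an exchange factor for the small GTPase Arf6, differed most, at 124 and 54.8 CPM (1.17, 1.06 to 1.30). Apoe, the apolipoprotein E gene, stood at 1074 and 637.5 CPM (0.75, 0.71 to 0.79). Smad6, an inhibitor of BMP signalling, stood at 87.5 and 51.8 CPM (0.75, 0.62 to 0.89). Itih4 stood at 242 and 135 CPM (0.84), Lum, a small proteoglycan gene, at 123.5 and 70.2 CPM (0.81) and Mrps6, a mitochondrial ribosome subunit, at 120 and 71.6 CPM (0.74). Over 14 alternative settings, Psd and Itih4 were past 1.5-fold in 14, Smad6 and Mrps6 in 13 and Lum, Apoe and Des in 12. Against only the cells with Tnnt2 and Igfbp2 both at 0, Lum (0.15), Apoe (0.36) and Tcap (0.28) were not. With at most 5% mitochondrial UMIs, Lum (0.34), Apoe (0.44) and Mrps6 (0.49) were not. Des was not with a Tnnt2 minimum of 1 UMI (0.49) or against only the cells with Igfbp2 (0.29). Below 1.5-fold, the rule for naming genes added Pkdcc (0.57), Nrtn (0.56), Stbd1 (0.52), Fbln1 (0.52), Id2 (0.49) and Mecom (0.47).

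Several of these genes are also strong in Pdgfra cells. Apoe stood there at 4289 CPM, Lum at 1965 CPM and Fbln1 at 1410 CPM. In members, 9 cells held 24.8% of the Lum UMIs and 19.6% of the Fbln1 UMIs, against 7.47% for Des. Dcn, another fibroblast gene, stood at 450 CPM in members and 433 CPM in the other smooth muscle cells, and among thinned cells without Igfbp2 at 461, 296, 291, 427.5 and 544 CPM for 0, 1, 2, 3 to 4 and 5 or more Tnnt2 UMIs. Leaving out cells marked as doublets moved Lum from 0.81 to 1.0845 and Fbln1 from 0.52 to 1.101. The part of fibroblast RNA in the higher levels was not tested. Exons of Mrps6 overlap Slc5a3 and Gm49711 on the same strand, Psd overlaps Nfkb2 and Des overlaps Gm15179 on the opposite strand, and whether the authors' counting used strand is not given in the sources used here, so these levels are uncertain.

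**Figure D2:**
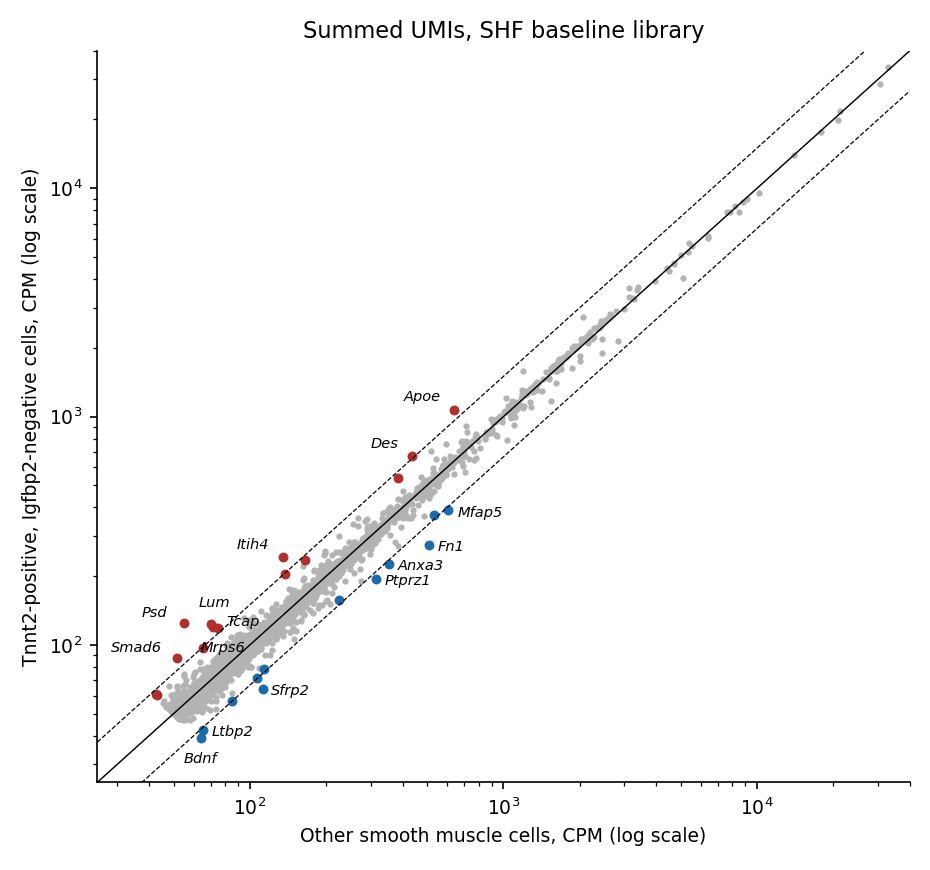
Level of each gene (CPM, log axes) in the members against the other smooth muscle cells, 1 point per gene, with higher named genes in red, the 12 lower named genes in blue and dashed lines at 1.5-fold. The labelled genes lie past the lines, from Psd at 124 against 54.8 CPM to Fn1 at 273 against 509 CPM.

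The 7 lower genes were Fn1, Mfap5, Ltbp2, Sfrp2, Bdnf, Ptprz1 and Anxa3. Fn1 stood at 273 CPM in members and 509 CPM in the other smooth muscle cells (-0.90, -0.96 to -0.84). Mfap5, a microfibril protein gene, stood at 388 and 602 CPM (-0.63, -0.68 to -0.58), and Ltbp2, which binds microfibrils, at 42.4 and 65.4 CPM (-0.61). Sfrp2, a secreted modulator of Wnt signalling, stood at 64.4 and 113 CPM (-0.80). Bdnf, a neurotrophin gene, stood at 39.0 and 64.01 CPM (-0.70), Ptprz1, a receptor phosphatase gene, at 195 and 315 CPM (-0.69) and Anxa3, an annexin gene, at 227 and 355 CPM (-0.64). Of 14 alternative settings, Fn1 and Sfrp2 were past 1.5-fold in 14 and Ptprz1 in 13. Bdnf and Mfap5 were past it in 12, Anxa3 in 10 and Ltbp2 in only 6. Against only the cells with Tnnt2 and Igfbp2 both at 0, Bdnf (-0.51), Ptprz1 (-0.16), Anxa3 (-0.26), Mfap5 (-0.56) and Ltbp2 (-0.17) were under 1.5-fold. Below 1.5-fold followed Wisp2 (-0.58), Col5a1 (-0.57), Mylk4 (-0.53), S100a4 (-0.52) and Col15a1 (-0.52). Fn1 overlaps Apol7d on the opposite strand, and Anxa3 and S100a4 overlap Gm42603 and Gm42674 on the same strand; Bdnf, Ltbp2, Sfrp2, Col5a1 and Col15a1 each overlap a gene on the opposite strand.

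The matrix lists leaned to the lower side. Over all 7165 genes with a mean of 10 CPM or more, 3500 lay above and 3665 below, and 44 were 1.5-fold higher and 33 lower. Of 18 elastic fibre genes, 13 lay below and 5 above, 4 were 1.5-fold lower (Fbln2, Mfap5, Ltbp2 and Loxl2) and 0 higher, and the median was -0.18. Elastin (Eln) stood at 2154 CPM in members and 2825 CPM in the other smooth muscle cells (-0.39, -0.41 to -0.37), and the crosslinking enzyme gene Lox at 169 and 210 CPM (-0.31), while Fbln5 was on the other side (0.18). Of 22 collagen and basement membrane genes, 17 lay below, 0 passed 1.5-fold in either direction and the median was -0.12; Col1a1 had -0.25 and Col6a2 -0.50, and Col14a1 had 0.24. Of 23 matricellular and proteoglycan genes, 18 lay below, Fn1 and Vcan (versican, -0.94) were 1.5-fold lower, Lum was higher and the median was -0.14. Among 10 genes linked to modulated smooth muscle, Lgals3 (-0.76), Fn1 and Comp (-1.11) were lower, and Lum and Mmp3 higher, with a median of -0.27; 96.0% of the Mmp3 UMIs lay in 9 cells.

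Some signalling and lineage genes were past 1.5-fold. Over all 7165 genes with a mean of 10 CPM or more, 0.614% were 1.5-fold higher and 0.461% lower. Of 25 TGF-beta and BMP genes, Smad6 alone passed 1.5-fold and the median was 0.04. Its relative Smad7 stood at 221 and 162 CPM (0.45), and the BMP target genes Id1, Id3 and Id4 had ratios of 0.31, 0.40 and 0.45, all under 1.5-fold; Tgfb2 had -0.32. Of 23 lineage and patterning transcription factors, Gata4 was higher and Prrx2 lower (7.67 and 17 CPM, -1.05), with a median of 0.01. Gata4, a cardiac zinc finger factor, stood at 21.4 CPM in members, 6.67 CPM in other smooth muscle cells and 11.6 CPM in Pdgfra cells (1.55, 1.35 to 2.03). Gata4 thus reached the mean of 10 CPM only through the members, and Prrx2 only through the other smooth muscle cells. A Gata4 UMI was found in 21.7% of members (9.92% thinned), 6.89% of other smooth muscle cells (3.28%) and 8.52% of Pdgfra cells (5.43%). Isl1, a second heart field factor, had a ratio of 0.03. Of 11 receptor and cGMP genes, the natriuretic peptide receptor Npr1 (28.1 and 43.6 CPM, -0.62) and Rgs2 (16.5 and 28.0 CPM, -0.72) were lower and 0 higher, with a median of 0.04. Of 16 channel genes, 0 passed 1.5-fold and the median was -0.07.

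The rule joins 2 conditions, and the genes differed in which of them gave the larger ratio. The cells without Igfbp2 were compared at high and low Tnnt2 (900 members and 691 cells under 2 UMIs), and the cells with 2 or more Tnnt2 UMIs were compared without and with Igfbp2 (900 members and 295 cells). Des had the larger ratio for Tnnt2: its levels were 672 CPM in members, 642 CPM in Tnnt2-positive cells with Igfbp2 and 331 CPM in Tnnt2-low cells without it, with ratios of 1.02 (0.96 to 1.084) for Tnnt2 and 0.06 (0.00 to 0.13) for the absence of Igfbp2. In Tnnt2-low cells the ratio of Des for the absence of Igfbp2 was -0.29 (-0.39 to -0.19). Psd had 1.18 and 0.74, and Gata4 2.01 and 0.87. Lum (0.38 and 1.65), Tcap (0.30 and 1.12) and Apoe (0.51 and 1.02) had the larger ratio for Igfbp2. Among lower genes, Ptprz1 (-0.27 and -1.04) and Fn1 (-0.61 and -0.99) had the larger ratio for Igfbp2, and Col5a1 (-0.61 and -0.30) for Tnnt2. Of the 15 higher named genes, 10 had the larger ratio for Igfbp2 and 5 for Tnnt2, and of the 12 lower ones 9 and 3. These counts compare the values alone, and for several genes the 2 counting intervals overlap. Pkdcc had 0.41 to 0.61 for Tnnt2 and 0.45 to 0.71 for Igfbp2, and Mylk4 had -0.63 to -0.36 and -0.75 to -0.44. In the cells with Igfbp2 the Tnnt2 ratio had the opposite sign for 4 of the 15 and 2 of the 12. The counting interval did not reach 0 for Lum (-0.40, -0.73 to -0.09) and Bdnf (0.31, 0.06 to 0.58, against -0.49 without Igfbp2). It spanned 0 for Nrtn (-0.10, -0.38 to 0.19), Fbln1 (-0.28, -0.60 to 0.03), Id2 (-0.02, -0.14 to 0.09) and Mylk4 (0.06, -0.13 to 0.27). In Tnnt2-low cells the Igfbp2 ratio had the opposite sign for 2 of the 15, Des and Fbln1 (-0.46, against 0.49), and 0 of the 12. Depth moved with the Igfbp2 condition, with a median of 14717 UMIs in the Tnnt2-positive cells with Igfbp2 and 12321.5 in members, and its part in these ratios was not tested.

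**Figure D3:**
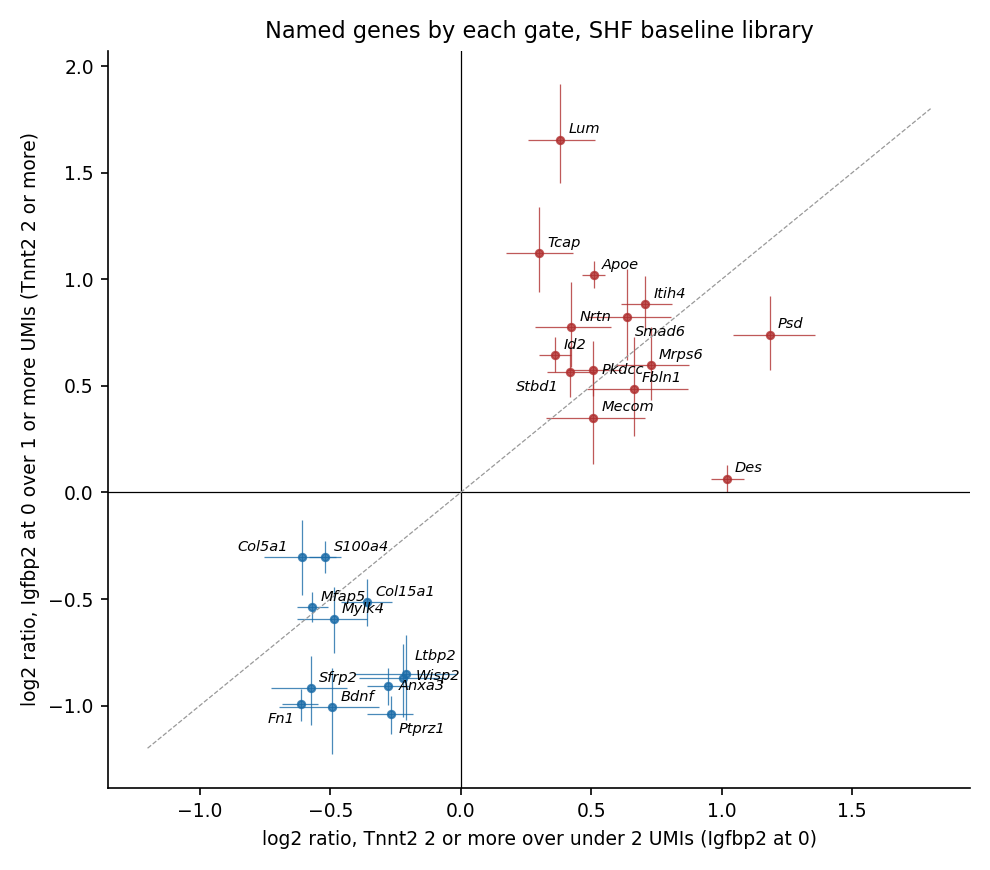
Log2 ratios of named genes for Tnnt2 (2 or more UMIs over fewer, Igfbp2 at 0, x axis) and for the absence of Igfbp2 (0 UMIs over 1 or more, Tnnt2 at 2 or more, y axis), with bars for 95% counting intervals and a dashed line where both ratios are equal. Des lies on the x axis side at 1.02 and 0.06, and Lum on the y axis side at 0.38 and 1.65.

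Levels also moved along the number of Tnnt2 UMIs. Cells without Igfbp2 were thinned to 5000 UMIs and split by thinned Tnnt2 UMIs into 666 cells with 0, 209 with 1, 129 with 2, 160 with 3 to 4 and 389 with 5 or more. Des stood at 367, 400, 555, 595 and 762 CPM in that order, and Mrps6 at 71.8, 74.6, 94.6, 117.5 and 137 CPM. Col5a1 went the other way, at 110.5, 99.5, 68.2, 57.5 and 57.1 CPM, as did Col15a1, from 193 to 119 CPM. Of the genes followed, these 4 had an unbroken order over the 5 bins. Psd ran from 52.6 to 176 CPM, Apoe from 719 to 1471 CPM and Fn1 from 374 to 203 CPM with a break in the order. Mfap5 stayed between 568 and 616 CPM up to 2 UMIs and was 364 and 251 CPM above that. Cnn1 lay between 1530 and 1668 CPM throughout.

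**Figure D4:**
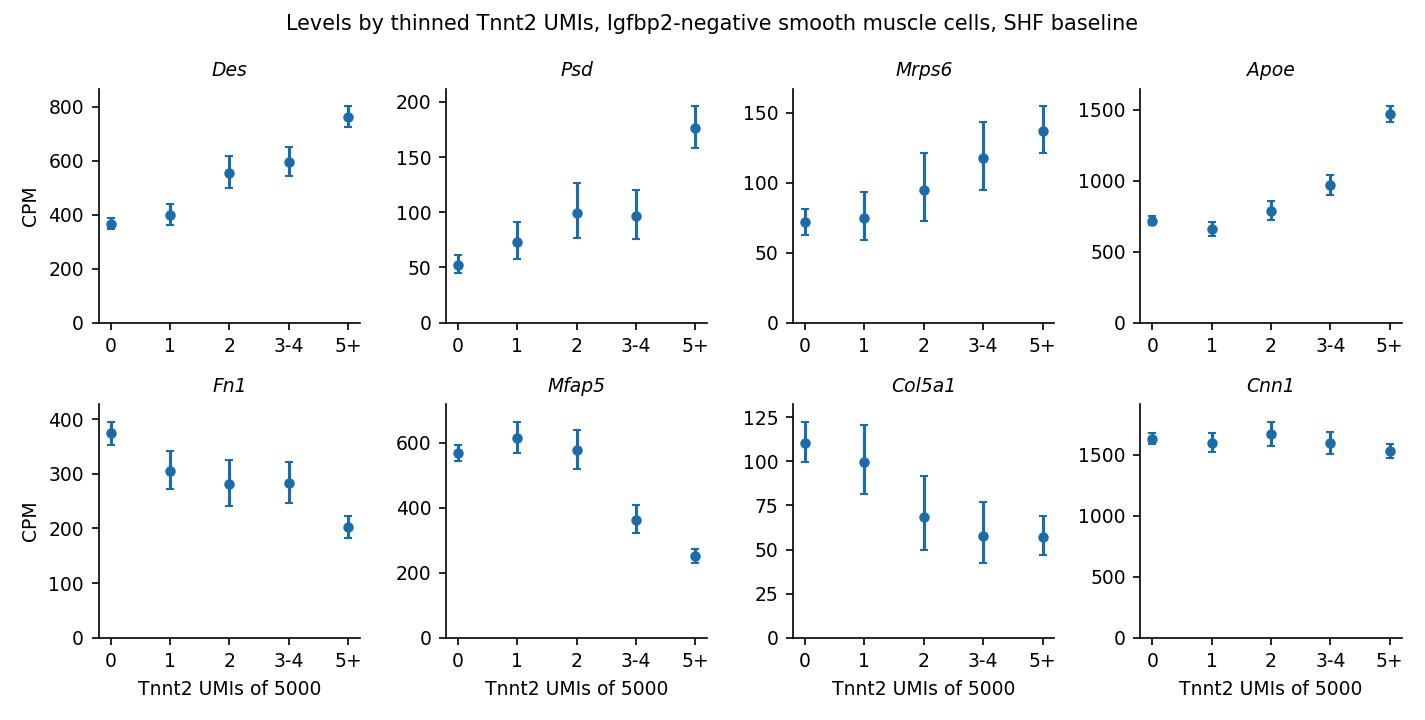
Level (CPM) of 8 genes by the number of Tnnt2 UMIs in smooth muscle cells without Igfbp2, each cell thinned to 5000 UMIs, with bars for 95% Poisson intervals. Des goes from 367 to 762 CPM and Fn1 from 374 to 203 CPM, while Cnn1 stays between 1530 and 1668 CPM.

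The contrast with Pdgfra cells was set by the rule through Myh11 and Pdgfra, and muscle genes were on the members' side. Of 2774 genes with a mean of 50 CPM or more, 4.61% were 4-fold or more higher in members and 6.81% lower; at 10 CPM or more the shares were 3.34% and 5.88% of 7766 genes. At 50 CPM these were 128 and 189 genes; TMM scaling moved the ratios by 0.21 and gave 156 higher and 158 lower. Cnn1 stood at 1589 CPM in members and 6.70 CPM in Pdgfra cells (7.69, 7.71 to 8.07), and Actg2 (enteric actin, 7.69), Cbr2 (6.90), the potassium channel subunit Kcnmb1 (6.85) and Des (6.74) followed. Tinagl1 (6.55), Pcp4l1 (6.51), Mcam (6.38), Optc (6.29), Ptprz1 (6.22) and Mylk (6.004) were also among the highest. Ptprz1 was thus far above Pdgfra cells although it was lower than in other smooth muscle cells. Of 23 contractile genes, 22 were 4-fold higher (median 4.12), and of 14 striated muscle genes 10 were (median 4.11). Some of these, such as Des (5.29 CPM in Pdgfra cells) and Tcap (2.33 CPM), reached the mean of 10 CPM only through the members.

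Fibroblast genes were on the other side. Pi16 stood at 15.3 CPM in members and 3417 CPM in Pdgfra cells (-7.72), followed by Ly6a (-7.66), Clec3b (-7.62), Ly6c1 (-7.24), Cytl1 (-7.21), Dio2 (-6.96), C3 (-6.87) and Igfbp5 (-6.72). Of 24 collagen genes 2 were 4-fold higher and 8 lower (median -1.59), of 19 elastic fibre genes 0 and 6 (-1.21), of 25 matricellular genes 5 and 9 (-1.28) and of 15 modulated smooth muscle genes 1 and 10 (-3.50). Some listed genes, such as Ly6a (3.75 CPM in members) and Ly6c1 (0.511 CPM), reached the mean of 10 CPM only through the Pdgfra cells. Their place on the lower side was set by that minimum. The median over all 7766 genes was -0.18.

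The rule did not use the AngII libraries, so the same gate there gives separate values, again from 1 library each. In SHF_AngII, 746 of 4523 smooth muscle cells (16.5%) met it, and in CNC_AngII 140 of 6207 (2.26%), against 43.1% at baseline. The count files were not built alike. SHF_Baseline had 18760 gene rows with 13 repeated names, and SHF_AngII and CNC_AngII each had 32285 with 0 repeated. The part of this in differences between the libraries was not tested. Igfbp2 was found in 68.3% and 81.5% of the smooth muscle cells there, against 23.9% at baseline. The chosen cells were shallower than the other smooth muscle cells in both (medians 9829.5 and 14166 UMIs in SHF_AngII, 9494.5 and 13484 in CNC_AngII), and the part of depth was not tested. Genes 1.5-fold higher made up 2.55% of 2475 in SHF_AngII and 1.65% of 2479 in CNC_AngII, and genes 1.5-fold lower 1.74% and 0.726%.

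Of the 9 genes higher at baseline, 5 were past 1.5-fold in SHF_AngII (Apoe, Lum, Itih4 and Tcap among them) and 5 in CNC_AngII (Des, Apoe, Itih4 and Tcap among them); 7 and 6 of the 9 reached the level of 50 CPM, and all 9 lay above 0 in both. The 5 were 7.94% of the 63 higher genes in SHF_AngII and 12.2% of the 41 in CNC_AngII. Tcap stood at 317 and 75.7 CPM in SHF_AngII (2.05, 1.996 to 2.14) and 189 and 72.9 CPM in CNC_AngII (1.36, 1.21 to 1.53). Des stood at 776 and 645 CPM in SHF_AngII (0.27) and at 210 and 87.7 CPM in CNC_AngII (1.25). The other smooth muscle cells differed in makeup between the libraries: 499 of 1190 held Igfbp2 at baseline, 3088 of 3777 in SHF_AngII and 5061 of 6067 in CNC_AngII. Within cells without Igfbp2, the Tnnt2 ratio of Des was 0.72 in SHF_AngII and 1.76 in CNC_AngII, against 1.02 at baseline, and that of Fn1 was -0.84 and -0.12, against -0.61. Psd, under the level of 50 CPM, had ratios of 2.13 and 1.87, and Gata4 1.17 and 1.42. Of the 7 lower genes, Fn1, Bdnf, Anxa3 and Ptprz1 were past 1.5-fold in SHF_AngII, 9.30% of the 43 lower genes there, where 6 of the 7 lay below 0 and Sfrp2 did not. In CNC_AngII 0 of the 7 passed 1.5-fold, and all 7 lay below 0. Fn1 had -1.14 in SHF_AngII and -0.50 in CNC_AngII, and Eln had -0.93 and -0.69.

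**Figure D5:**
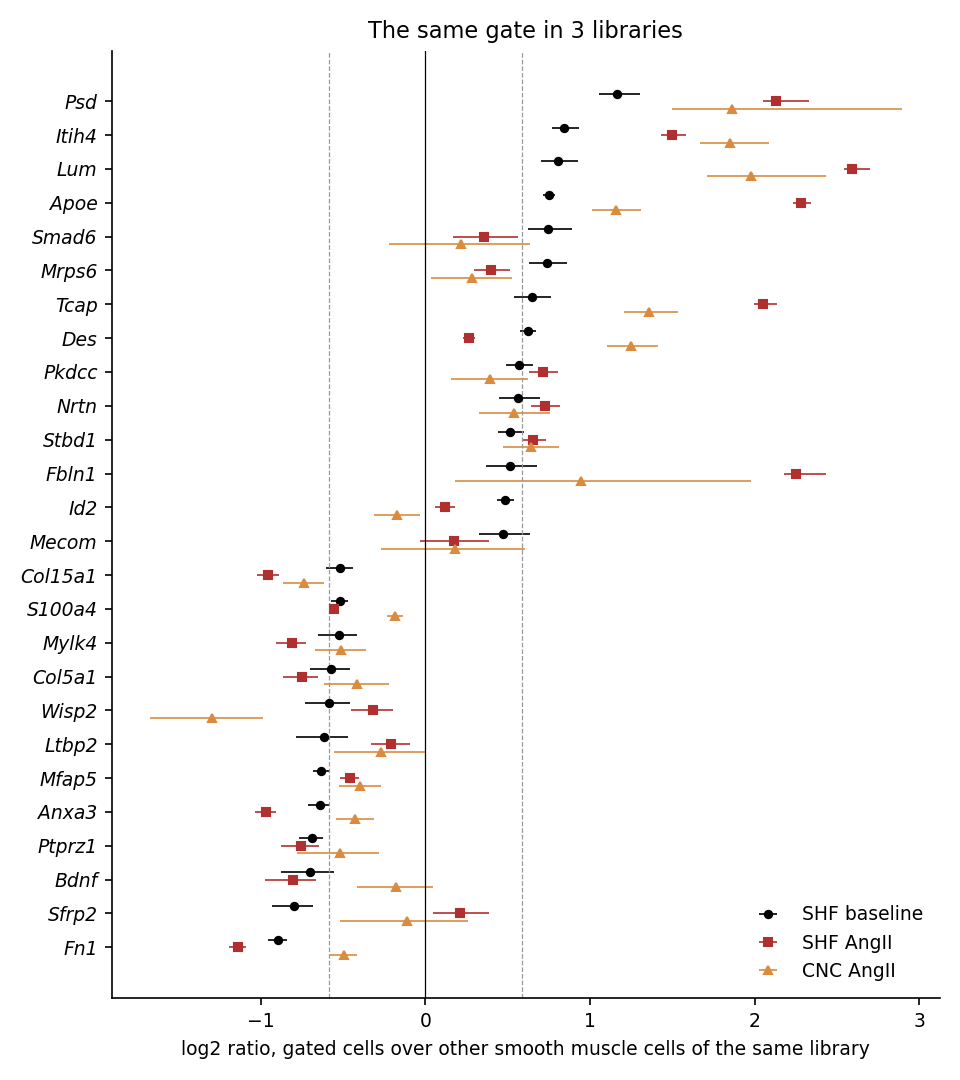
Log2 ratio of the gated cells over the other smooth muscle cells for named genes in SHF_Baseline, SHF_AngII and CNC_AngII, with bars for 95% counting intervals. Tcap lies at 0.65, 2.05 and 1.36, Fn1 at -0.90, -1.14 and -0.50.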

How the data were processed

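Single-cell 3′ libraries were analysed from the UMI counts per gene and barcode that the authors deposited. The submitters' processing notes name fastp, STAR 2.5, HTSeq 0.6.1 and mm10; how UMIs were counted and cells called is not given in the sources used here. Members, gene lists and comparisons were chosen with earlier results of these data known. Counts were summed over cells and scaled to CPM, without a doublet caller (Scrublet was an alternative). For thinned values each cell was reduced to 5000 UMIs, leaving out 13 members, 32 other smooth muscle cells and 717 Pdgfra cells. Named genes had a mean of 50 CPM and a UMI in 10% of the cells of the higher group: the 15 highest and 12 lowest ratios against other smooth muscle cells and the 12 highest and 8 lowest against Pdgfra cells, without gate, mitochondrial, ribosomal protein, haemoglobin or repeated gene names; genes of the lists could also be named. Some genes that met the rule are not reported here. The scripts were tested on simulated data. Python 3.11.15, numpy 2.4.6, scipy 1.17.1, pandas 2.3.3, scanpy 1.11.5, matplotlib 3.10.9, R 4.3.3 and edgeR 4.0.16 (TMM factors only) were used.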

Additional observations from a re-analysis of the deposited data

Results flagged for a closer look

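Sfrp2 was lower in the members at baseline (log2 ratio -0.80 over the other smooth muscle cells) but had a ratio of 0.21 (0.05 to 0.38) in the same gate of SHF_AngII. Id2 was higher in the members at baseline (0.49) but had a ratio of -0.17 (-0.31 to -0.03) in CNC_AngII. Both were picked out because the sign was opposite and the counting intervals did not reach 0. Each library is 1 sample, and these differences were not tested.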

How the results depend on the processing

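With at most 5% mitochondrial UMIs only 59 members and 61 other smooth muscle cells remained, 116 genes were 1.5-fold higher (6 of the 9 among them) and 105 lower (5 of the 7), and Stbd1 (-0.27), Fbln1 (-0.16) and Mecom (-0.0189) changed sign; the smaller number of cells is part of that setting's construction. Without a minimum level, 206 genes were higher and 178 lower than in other smooth muscle cells, and 384 and 759 than in Pdgfra cells. With a minimum of 100 CPM the counts were 4 and 4, and 84 and 111, since fewer genes were compared. Against only the cells with Igfbp2, 17 were higher and 14 lower (8 of the 9 and all 7 among them); against only the cells with Tnnt2 and Igfbp2 both at 0, 6 were higher and 7 lower, with only 5 of the 9 and 2 of the 7 among them; the cause was not tested. Of 378 ratios of 27 named genes against other smooth muscle cells, 263 stayed within the counting interval, centred on the reported value, 112 moved beyond it and 3 changed sign. Of 240 ratios of 20 genes against Pdgfra cells, 181 stayed, 59 moved and 0 changed sign, and each remained past 4-fold. Counts limit genes under a few CPM, such as Myh6 with 7 UMIs. No paired analysis was possible because each group is 1 library. No setting replaces a replicate.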

Other observations

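Lists of other cell functions showed 0 genes past 1.5-fold between the members and the other smooth muscle cells. Over all 7165 genes with a mean of 10 CPM or more, 0.614% were 1.5-fold higher and 0.461% lower. Counts of 0 in short lists are near those shares. Of 24 immediate early and heat shock genes, 14 lay above and 10 below, with a median log2 ratio of 0.01. The 29 nuclear genes of the respiratory chain divided into 16 above and 13 below, with a median of 0.01, and 4 cell cycle genes into 2 and 2. Of 16 myocardin and KLF regulators, 9 lay above and 7 below. In the IGF axis, outside Igfbp2 itself, 10 of 11 genes lay below (median -0.10). Of 8 Notch genes, 3 lay above and 5 below, with a median of -0.05 and a mean of 0.07, which differ in sign; Jag1, a Notch ligand, stood at 46.3 and 33.03 CPM (0.47, 0.31 to 0.66).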
